A study of Drosophila melanogaster with 11 samples.

Results

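Unfertilized eggs of wild-type (w1118) Drosophila melanogaster, collected at 4 to 6 h, were compared with wild-type stage 14 oocytes on 3 of the 11 arrays of the study. The arrays were chosen by their titles, which name both materials, and all 3 carry the source label of unfertilized eggs. Each array held a sample in one colour and RNA of w1118 stage 14 oocytes in the other, so every value is a log ratio between a sample and oocyte RNA. Beside them stand 4 arrays of w1118 embryos at 2 to 3 h, to which the unfertilized eggs were compared, and 4 arrays of smg material of the same age, which here contribute only to the estimate of the spread between arrays. The unfertilized-egg arrays were labelled directly, with Cy3 for the eggs and Cy5 for the oocytes. On the embryo arrays the labelling was indirect and the dyes ran the other way, Alexa Fluor 647 marking the embryos and Alexa Fluor 555 the oocytes. The labels do not say whether the 3 arrays came from separate collections of eggs, so that p-values here reflect only how these arrays vary, which may be technical.

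The stage 14 oocyte is the last stage of oogenesis in the fly and is transcriptionally silent, carrying transcripts made earlier by the germline nurse cells. Passage through the oviduct activates the egg, with or without a sperm: meiosis is completed, translation of stored transcripts changes, and a part of the maternal transcripts is destroyed by factors that the mother supplied. A fertilized egg adds zygotic transcription to this, and with it further pathways of transcript decay, whereas an unfertilized egg makes no zygotic transcripts. The comparison of unfertilized eggs with oocytes thus addresses which transcripts change under maternal control alone.

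Values were obtained for 6387, 6688 and 6746 genes on replicates 1, 2 and 3, and 75%, 81.3% and 83.8% of all spots had one. As deposited, the median over genes was -0.37, 0.12 and 0.16 on the log2 scale. It was subtracted from each array, so that a change is given relative to the median gene of its array and not per egg. Across genes, the arrays correlated pairwise at Pearson r = 0.618 (replicates 1 and 2), 0.589 (1 and 3) and 0.613 (2 and 3), over 6292 to 6643 genes that share arrays, dyes and oocyte RNA. No channel intensities were among the values, so the depth behind a ratio is unknown, levels of different genes cannot be compared, and the number of arrays limits the precision. The files do not state which channel is the numerator. A ratio of sample over oocyte is likely, since titles name the sample first, and from the yolk protein genes, which lay below 0 on all 3 arrays, and from the zygotic genes that lay far above 0 in the embryos. The zygotic genes bear on the embryo arrays, whose dyes ran the other way. The unfertilized-egg arrays correlated with the embryo arrays, which share the oocyte RNA, at Pearson r = 0.287 to 0.560. All directions below are given as sample over oocyte, and with the opposite numerator each would turn. The fall of the yolk genes and the high zygotic genes of the embryos served as a basis for this reading. Neither is separate evidence for it. No array of the group had its dyes swapped, so that a dye bias of a spot stays in its ratio. Among the smg arrays, replicates 3 and 4 correlated at r = -0.511 to -0.124 with replicates 1 and 2, so the spread they contribute to the fit of all 11 arrays includes opposed values. Embryo replicate 1 had a value on 48.9% of spots and for 3824 genes, against 6299 to 6777 genes on the other embryo arrays. It correlated at r = 0.787 with smg replicate 1 and at 0.457 to 0.609 with the other embryo arrays.

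Read as sample over oocyte, the unfertilized eggs differed from oocytes mainly by transcripts that were lower. Of 6782 genes with a value on at least 2 arrays, 747 (11%) changed at an adjusted p under 0.05 in limma's test of the mean ratio against 0. Of these, 680 fell (10% of the genes tested) and 67 rose (0.988%), whereas with oocyte as the numerator 680 would be higher and 67 lower. Among the genes that fell, the median change was -0.96 and the lowest -3.45 on the log2 scale, 317 lay at 1 log2 unit or more below 0, and 47 at 2 or more. The genes that rose had a median change of 0.68 and a highest of 0.99, so that 0 of the 67 reached 1 log2 unit. Of the 668 lower genes measured on all arrays, 666 lay below 0 on each of them. All 57 higher genes measured on all arrays lay above 0 on each of them. The calls rest on the mean of these same values, so neither count is separate evidence that the arrays agree. The distribution had a long lower tail: its 1st percentile was -1.83 and its 99th 0.67, while the 25th and 75th were -0.23 and 0.22. The median standard deviation between the arrays was 0.27. In a fit of all 11 arrays, where the more variable arrays at 2 to 3 h share the estimate of the spread, 60 genes passed, all of them lower. Of the 41 gene lists and sublists described below, 21 had 0 falling genes in that fit, 16 had 1, and the most was 3. On the values as deposited 541 genes fell and 15 rose.

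**Figure D1:**
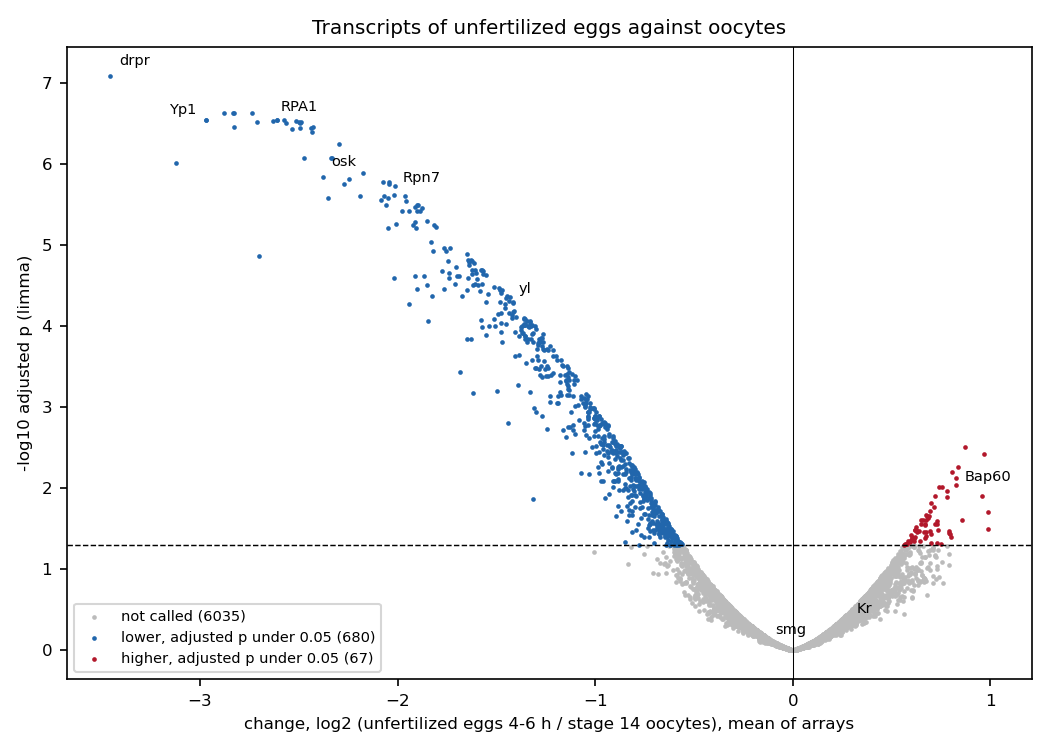
Mean change of each of 6782 genes in unfertilized eggs against stage 14 oocytes (x axis, log2 ratio) against the adjusted p of limma (y axis, -log10), with the dashed line at an adjusted p of 0.05. The 680 genes called lower reach -3.45, while the 67 called higher stay under 0.99.

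The gene with the lowest value was drpr, which encodes the Draper receptor for engulfment of dying cells. Its log2 ratios were -3.19, -3.55 and -3.62 on replicates 1 to 3, a mean of -3.45 (SE 0.18, 10.9-fold lower, adjusted p = 8.18e-08). Yp1, a yolk protein gene of follicle cells and fat body, stood at -2.50, -3.35 and -3.06, and Pxt, a peroxidase with a role in egg chamber maturation, at -2.83, -3.16 and -2.64. The remaining 12 of the 15 lowest named genes had means between -2.83 and -2.53, and on single arrays none of them lay above -1.59.

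Ordered by role, genes of chromatin and DNA come first. Jabba, which anchors maternal histones to lipid droplets, was at -2.69, -2.75 and -3.04 (mean -2.83, adjusted p = 2.39e-07). The histone methyltransferase gene NSD had ratios of -2.53, -2.52 and -2.77, and NO66, a gene of a chromatin-associated dioxygenase, of -2.57, -2.47 and -2.69. RPA1, the large subunit of the single-stranded DNA binding protein of replication, gave -2.41, -2.60 and -2.89. MCPH1, the fly microcephalin, gave -2.47, -2.58 and -2.78. The standard deviation between arrays was 0.11 to 0.24 for these 5 genes, below the median over all genes.

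The other genes at the low end have varied roles. del, or deadlock, a nuclear factor of piRNA precursor transcription, stood at -2.87, -2.67 and -2.96. Hsp26, a small heat shock protein, was at -2.82, -2.34 and -3.32, and yin, a peptide transporter gene, at -2.68, -2.70 and -2.84. The glycolytic enzyme gene Gapdh1 was at -2.87, -2.49 and -2.25, on spots that can also bind the transcript of the related Gapdh2. Nacalpha, a subunit of the complex that binds nascent polypeptides, spread most, with -3.64, -2.87 and -1.59 (SE 0.28, adjusted p = 1.36e-05). CBP gave -3.11, -2.60 and -2.43, and the eye pigmentation gene p gave -2.86, -2.37 and -2.45. All 15 passed the test when any 1 array was left out and on the values as deposited. In the fit of all 11 arrays 14 passed, and CBP did not (adjusted p = 0.0774, between 4.78e-24 and 0.0774 over its alternatives).

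**Figure D2:**
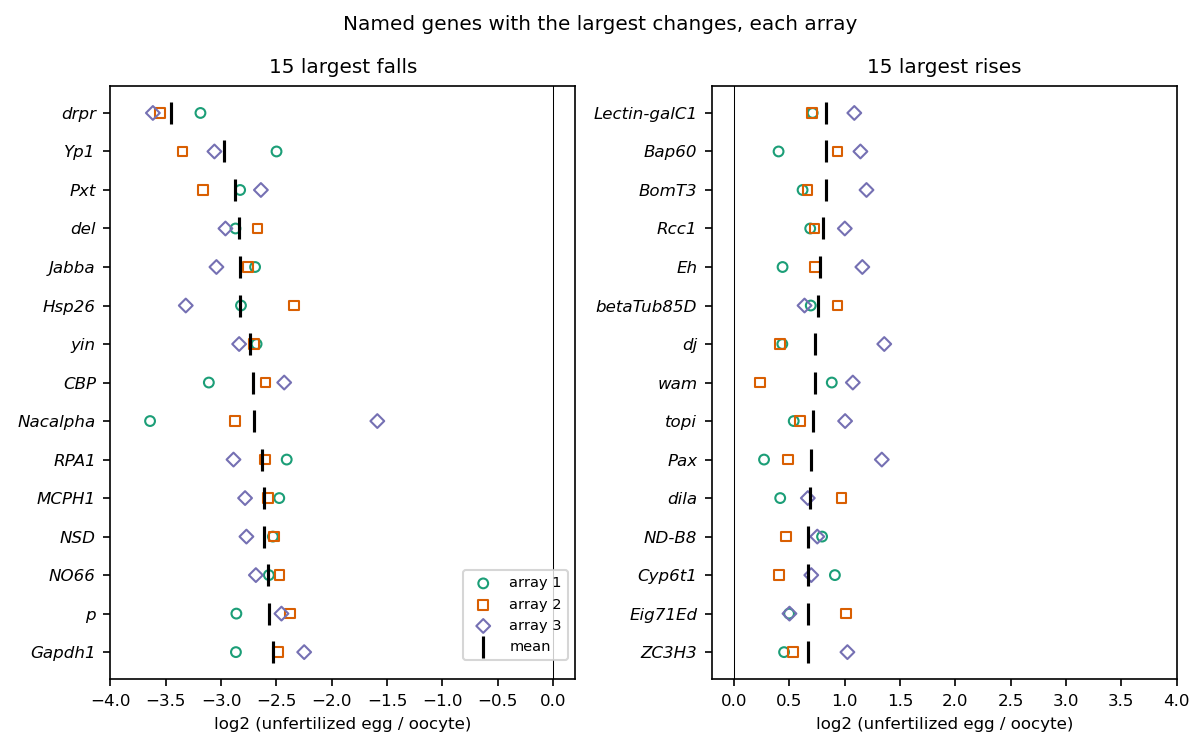
Log2 ratio of unfertilized egg to oocyte on each of the 3 arrays (symbols) and their mean (bars) for the 15 named genes with the largest falls (left) and the 15 with the largest rises (right), on x axes of equal length. The falls lie between -3.64 and -1.59 on single arrays, and the rises between 0.23 and 1.36.

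Among maternal determinants, the transcripts of the germ plasm organiser and of several localization factors fell. Of 13 genes for mRNA localization and axis determinants 5 fell (38.5%, against 10% of all genes), with a list median of -0.47 against 0.02 over all genes tested. osk (oskar), which assembles the germ plasm, stood at -2.71, -1.88 and -2.54 (mean -2.38, SE 0.19, adjusted p = 1.43e-06). exu (exuperantia), needed to localize the anterior determinant, was at -1.77, -1.40 and -2.57, and orb, a cytoplasmic polyadenylation factor, at -1.67, -1.01 and -1.35. The dynein adaptor gene egl was at -1.04, -0.94 and -0.85. aub, a Piwi protein of the germ plasm, was at -0.71, -0.62 and -0.72, and its call was lost without replicate 1 (adjusted p = 0.0897) and on the values as deposited (0.0759). Among members not called, grk, the ligand of dorsal-ventral patterning in the egg chamber, had a mean of 0.09 and tsu of 0.30. swa, a further localization factor, had a mean of -0.47 (adjusted p = 0.117), as did cup (-0.47), and yps had one of -0.45.

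In the germ plasm and germline list 5 of 8 genes fell (62.5%, against 10% of all genes), with a median of -0.87. Beside osk and aub these were otu, a deubiquitinase of oogenesis (-1.57, -1.52 and -1.82), piwi (-1.26, -1.19 and -1.45), and fs(1)Ya, a nuclear envelope protein needed to start embryonic division (-1.004, -1.49 and -0.66). tud, which encodes the Tudor scaffold of germ plasm, had ratios of 0.25, 0.23 and 0.26 and did not pass (adjusted p = 0.422). A list of 7 transcripts known to be degraded after egg activation gave 3 that fell (42.9%), osk, exu and orb. The cell cycle transcripts CycB (-0.31, -0.07 and -0.40) and twe (-0.11, -0.18 and -0.25), also in this list, were not called.

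In the maternal dorsal-ventral pathway, 3 of 9 genes fell (33.3%, against 10% of all genes). spz, the ligand of the Toll receptor, fell most (-2.03, -1.30 and -1.74). The transcription factor gene dl (dorsal) was at -0.97, -0.25 and -1.04 and the kinase gene pll at -0.77, -0.83 and -0.34. The calls of dl and pll were lost without replicate 1 (adjusted p = 0.151 and 0.161), that of dl also without replicate 3 (0.0791) and that of pll without replicate 2 (0.176), so that spz alone of the 3 passed in each. The receptor gene Tl itself had a mean of 0.22. In the terminal and Ras pathway 2 of 7 genes fell (28.6%). These were the MEK gene Dsor1 (-1.35, -0.51 and -1.53) and the exchange factor gene Sos (-1.16, -1.14 and -0.60), while the receptor gene tor had a mean of -0.10.

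The piRNA pathway silences transposons in the germline with small RNAs bound by Piwi proteins. Of its 23 genes tested, 9 fell (39.1%, against 10% of all genes), and the list median was -0.27. The lowest were genes of precursor transcription and export and a component of the perinuclear nuage. Beside del these were Boot (-2.34, -2.67 and -2.47), an export factor gene, and krimp (-2.50, -2.18 and -2.62), a Tudor protein that binds Piwi proteins. Panx, which links Piwi to heterochromatin formation, was at -0.60, -0.84 and -1.04, wde, a cofactor of a histone methyltransferase, at -0.66, -0.90 and -0.86, and qin, a nuage component, at -0.88, -0.71 and -0.64. Kots, with a mean of -0.59, was the called member of smallest size (adjusted p = 0.0479). Members near the median gene included zuc, the nuclease that cuts precursors (0.17), mael (-0.03) and Hen1, the methyltransferase of mature piRNAs (-0.02). Without replicate 1, 6 genes of this list were called, and in the fit of all 11 arrays 3. Members of a list beyond the 5 with the smallest p were named here and below after their values were seen.

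Lists of housekeeping genes gave different shares of falling members. In glycolysis 7 of 11 genes fell (63.6%, against 10% of all genes), with a median of -0.95. Beside Gapdh1 these were Hex-A, the hexokinase (-1.47, -1.34 and -0.998), Pgi (-1.33, -1.18 and -0.99), Pgk (-1.25, -0.94 and -0.81), Tpi (-1.54, -0.66 and -0.68), Eno (-1.37, -0.12 and -1.36) and Pglym78 (-0.85, -0.70 and -0.35). For Eno replicate 2 lay apart from the other arrays. Pfk, the regulated step of the pathway, had a mean of -0.56 and did not pass (adjusted p = 0.0501), and Ald1 and Hex-C had means of 0.07 and 0.28. The count of calls was 4 without replicate 1, where Tpi had an adjusted p of 0.0864, and 1 in the fit of all 11 arrays, Gapdh1. In the citrate cycle, by comparison, 1 of 9 genes fell, Idh3a (-1.19, -0.91 and -0.20), which did not pass without replicate 1 (adjusted p = 0.203) or without replicate 2 (0.0599).

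The proteasome degrades ubiquitylated proteins and consists of a core particle, which holds the proteases, and a regulatory particle, which binds and unfolds substrates. Of 30 proteasome genes 8 fell (26.7%, against 10% of all genes). The split of this list by particle was made after its values were seen. All 8 were among the 14 genes of the regulatory particle (median -0.80), and 0 of 16 core genes were called (median 0.16, range -0.21 to 0.56). The 16 include 6 paralogues known from the testis, such as Prosalpha4T1 and Prosbeta2R1, and the other 10 gave 0 calls as well (median 0.13, range -0.21 to 0.40). The 14 regulatory genes also include paralogues, Rpn13R, Rpt3R and Rpt4R, which were not set apart and are not among the 8. Rpn7 was at -1.95, -2.07 and -2.02 (mean -2.01, SE 0.17, adjusted p = 1.89e-06). The deubiquitinase subunit gene Rpn11 was at -1.87, -1.52 and -1.47 and the ATPase gene Rpt2 at -1.29, -1.25 and -1.54. Rpn5, Rpn8, Rpt3, Rpn3 and Rpn13 had means between -1.32 and -0.72. Without replicate 1, 6 regulatory genes were called, and without replicate 3, 9. In the fit of all 11 arrays 1 was called, Rpn7.

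The CCT chaperonin folds actin and tubulin in a ring of related subunits. All 7 subunit genes measured had means below 0, as did 47.1% of all genes tested. Of the 7, 4 fell (57.1%, against 10% of all genes). CCT7 was at -2.49, -2.24 and -2.74, CCT3 at -1.99, -1.65 and -1.81 and CCT2 at -2.10, -1.88 and -1.24. CCT8 was at -0.91, -0.64 and -0.78 and did not pass without replicate 1 (adjusted p = 0.0707). CCT4, CCT5 and CCT1 had means of -0.40, -0.33 and -0.12. With the 4 genes of prefoldin, which delivers substrates to CCT, 5 of 11 fell, the fifth being Pfdn6 (-1.55, -0.82 and -1.30). Other chaperones gave 4 of 13 (30.8%), namely Hsp26, the DnaJ family genes Droj2 (mean -1.48) and DnaJ-1 (-1.35), and the endoplasmic reticulum chaperone gene Cnx99A (-0.998). The call of Cnx99A was lost without replicate 1 (adjusted p = 0.0595).

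**Figure D3:**
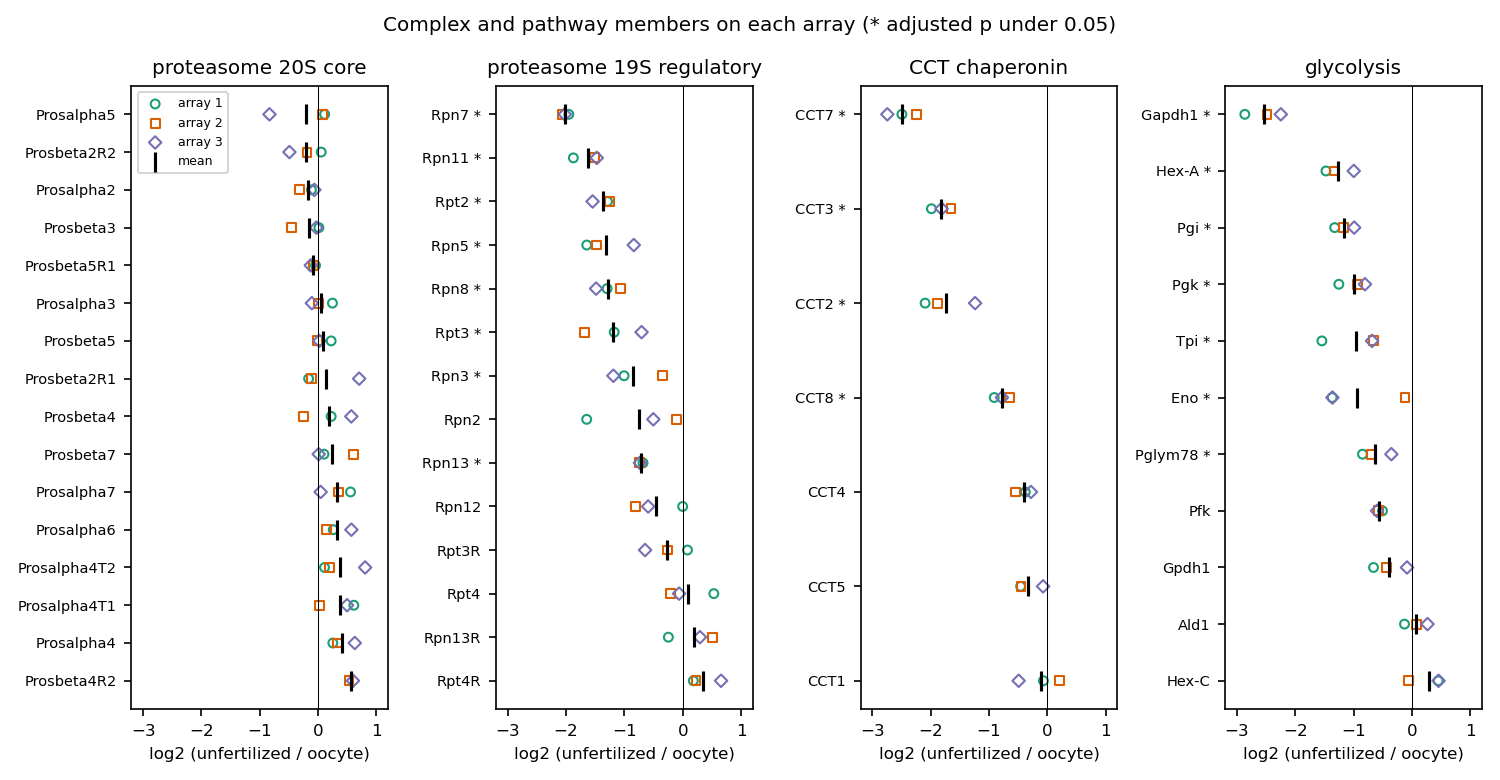
Log2 ratio of unfertilized egg to oocyte on each array (symbols) and the mean (bars) for the genes of the proteasome core (left), the proteasome regulatory particle, the CCT chaperonin and glycolysis (right), with an asterisk at genes of adjusted p under 0.05. The core genes lie between -0.83 and 0.81 on single arrays, while 8 of 14 regulatory genes, 4 of 7 CCT genes and 7 of 11 glycolytic genes fell.

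Among genes of DNA replication 9 of 24 fell (37.5%, against 10% of all genes, median -0.16). After RPA1 came Gnf1, the large subunit of the clamp loader (-1.80, -1.64 and -2.28), and DNAlig1, the ligase of lagging strands (-0.81, -1.16 and -2.01). The means of RfC4, Mcm5, RPA2, Orc4, Mcm3 and Cdc45 lay between -1.03 and -0.63. Without replicate 3 the count was 6. The origin recognition genes Orc1 and Orc5 (0.09 and 0.25) and the loading factor gene Cdc6 (0.41) had means above 0. In chromatin assembly, condensin and cohesin 8 of 19 fell (42.1%). After Jabba these were the assembly factor subunit Caf1-105 (-2.12, -1.97 and -1.79), the histone chaperone gene Nap1 (-1.59 and -2.11 on replicates 1 and 2, with no value on replicate 3), the cohesin genes SMC3 (mean -1.33) and SMC1 (-1.31), the maternal linker histone gene BigH1 (-1.08), the histone mRNA binding protein gene Slbp (-1.06) and asf1 (-1.005). The condensin genes SMC2, Cap-D2 and glu had means of 0.06, 0.08 and 0.39.

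Among regulators of the cell cycle some transcripts were far below 0 and others near it. Of 23 genes 6 fell (26.1%, against 10% of all genes): Cdk2 (-1.92, -2.17 and -2.13), the checkpoint kinase gene lok (-2.13, -2.28 and -1.74), Rbf, the retinoblastoma homologue (-2.47, -1.84 and -1.71), fzr, an activator of the anaphase-promoting complex (-1.95, -1.83 and -1.90), CycE (-1.54, -0.99 and -0.64) and CycJ (mean -0.79). Cdk7, the kinase that activates other cyclin-dependent kinases, rose (0.52, 0.64 and 0.78, adjusted p = 0.0248), but 0 genes of the list were called higher when any 1 array was left out or on the values as deposited. fzy, the other activator of the anaphase-promoting complex, had a mean of 0.24. Of 14 genes of the anaphase-promoting complex and cullin ligases 5 fell (35.7%), led by vih, a ubiquitin-conjugating enzyme of mitotic exit (-2.32, -2.23 and -1.71). The others were APC7 (mean -1.37), Cdc27 (-1.29), slmb (-0.91) and Cul2 (-0.82), of which Cul2 did not pass without replicate 1 (adjusted p = 0.0946).

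Of 15 centrosome and spindle genes 7 fell (46.7%, against 10% of all genes, median -0.55). msps, which promotes microtubule growth, was at -2.32, -1.86 and -1.76. Grip84, a subunit of the microtubule-nucleating ring, was at -1.57, -1.75 and -2.17, and the centrosome gene spd-2 at -1.54, -1.05 and -1.51. SAK, the kinase that starts centriole duplication, stood at -1.002, -1.30 and -0.91, and Klp10A, a microtubule-depolymerising kinesin, at -1.22, -0.76 and -0.94. feo and ana2 had means of -0.59 and -0.58. Without replicate 1, or without replicate 2, the count was 5, and in the fit of all 11 arrays it was 0. In the meiosis list 1 of 7 genes fell, the chromosome-bound kinesin gene nod (-0.93, -0.94 and -1.69).

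Egg activation and cytoplasmic polyadenylation gave 3 of 12 genes that fell (25%, against 10% of all genes): orb, mtrm, an inhibitor of Polo kinase in the oocyte (-2.22, -1.47 and -1.33), and Mos, a kinase upstream of MAP kinase in meiosis (-1.65, -1.27 and -0.82). Components of the kinase complex that drives translation after activation were not called. png had ratios of 0.16, 0.15 and -0.96, with replicate 3 apart from the others, and plu of 0.35, 0.37 and 0.67 (adjusted p = 0.117). The cytoplasmic poly(A) polymerase gene wisp had -0.69, -0.59 and 0.07. In the list of mRNA decay, deadenylation and translational repression 2 of 23 fell (8.7%, against 10% of all genes). These were Not3 (-1.30, -1.51 and -1.25) and Pop2 (-1.33, -1.07 and -1.23), subunits of the CCR4-NOT deadenylase, and neither passed in the fit of all 11 arrays (adjusted p = 0.302 and 0.368). Rcd-1 and Rga, also of that complex, had means of -0.33 and 0.10 and were not called. smg, whose product recruits the deadenylase to maternal transcripts, had -0.39, -0.18 and 0.17 (adjusted p = 0.715).

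The 3 yolk protein genes fell. Yp3 was at -1.24, -2.21 and -1.26 and Yp2 at -1.17, -1.99 and -1.37, beside Yp1 above. The 3 genes are similar in sequence, so their spots may share transcripts. They are made by follicle cells and not by the germline, and they were the 3 genes measured of 20 listed eggshell, yolk and follicle cell markers. In bulk RNA, fewer follicle cells in the sample and less transcript per cell cannot be told apart. The part of such cells in other falls was not tested. Of the lipid droplet and lipid store genes 3 of 11 fell (27.3%, against 10% of all genes): Jabba, the perilipin gene Lsd-2 (-2.20, -1.90 and -1.63), and yl, the germline receptor that takes up yolk (-1.48, -1.37 and -1.44). In the actin and tubulin cytoskeleton 4 of 10 fell (40%). qua, an actin-bundling protein of nurse cells, was at -1.94, -1.98 and -2.65 and the adducin gene hts at -1.69, -1.68 and -1.59. The Arp2/3 genes Arpc1 (mean -0.89) and Arpc2 (-0.62) did not pass without replicate 1 (adjusted p = 0.197 and 0.155), nor did Arpc2 without replicate 2 (0.251).

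Other large complexes gave shares of falling genes at or below the 10% of all genes. Of 20 cytosolic ribosomal protein genes 1 fell, RpL23 (-0.28, -1.31 and -0.89), and its call was lost without replicate 2 (adjusted p = 0.145). Of 48 mitochondrial ribosomal protein genes 2 fell, mRpL20 (mean -1.11) and mRpL12 (-0.75, not called without replicate 1, adjusted p = 0.0838), and the list median was 0.04. Of 42 oxidative phosphorylation genes 3 fell and 1 rose. The 3 that fell all belong to the ATP synthase: ATPsynbeta, the catalytic subunit (-2.39, -2.64 and -2.28), ATPsynC, the rotor ring (-2.15, -2.03 and -1.96), and ATPsynD (-1.37, -0.87 and -0.51, not called without replicate 1, adjusted p = 0.0883). The other 7 ATP synthase genes measured had means between -0.36 and 0.62. Of 18 complex I genes 0 fell and ND-B8 rose (median 0.19), a subdivision made after the values were seen. The call of ND-B8 was lost without replicate 1 (adjusted p = 0.129), without replicate 3 (0.0504) and on the values as deposited (0.131).

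For splicing factors 1 of 25 fell, fand (mean -0.95), and Prp4k rose (0.62), a call lost when any 1 array was left out (adjusted p = 0.0700, 0.0898 and 0.180 without replicates 1, 2 and 3). In the nuclear pore and transport list 2 of 25 fell, Nup188 (-1.28) and Nup154 (-0.66), and Rcc1 rose. The call of Nup154 was lost when any 1 array was left out (adjusted p = 0.0649, 0.0908 and 0.0647 without replicates 1, 2 and 3). Of 61 Rab, Sec, exocyst, ESCRT and coat protein genes 6 fell, led by alphaCOP (-1.81, -2.08 and -1.84) and TSG101 (-1.29, -1.54 and -1.42). Without replicate 2 the count was 3, and without replicate 3 it was 8. Of 12 aminoacyl-tRNA synthetase genes AlaRS alone fell (-0.90). Of 30 translation factor genes 5 fell (16.7%, against 10% of all genes), and the list median was -0.04. These were eRF3, a release factor (mean -1.27), eIF4G2 (-0.96), eIF2Bdelta (-0.82), eIF5B (-0.81) and eIF4G1 (-0.62). In the fit of all arrays of the series 0 translation factor genes were called lower. Whether their share differs from that of all genes was not tested. The calls of eIF4G1 without replicate 1 or 2 (adjusted p = 0.138 and 0.170) and of eIF2Bdelta without replicate 3 (0.0616) were lost. Of 34 genes of RNA polymerase II, its general factors and Mediator 4 fell (11.8%): MED19 (-1.44), Taf3 (-1.05), Taf4 (-0.82) and MED30 (-0.64). MED30 was not called when any 1 array was left out, and Taf4 not without replicate 1 (adjusted p = 0.143). Of 22 genes of apoptosis and autophagy 2 fell, drpr and the autophagy gene Atg17 (-0.78, -0.63 and -0.48, not called without replicate 1, adjusted p = 0.162, or replicate 2, 0.103).

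**Figure D4:**
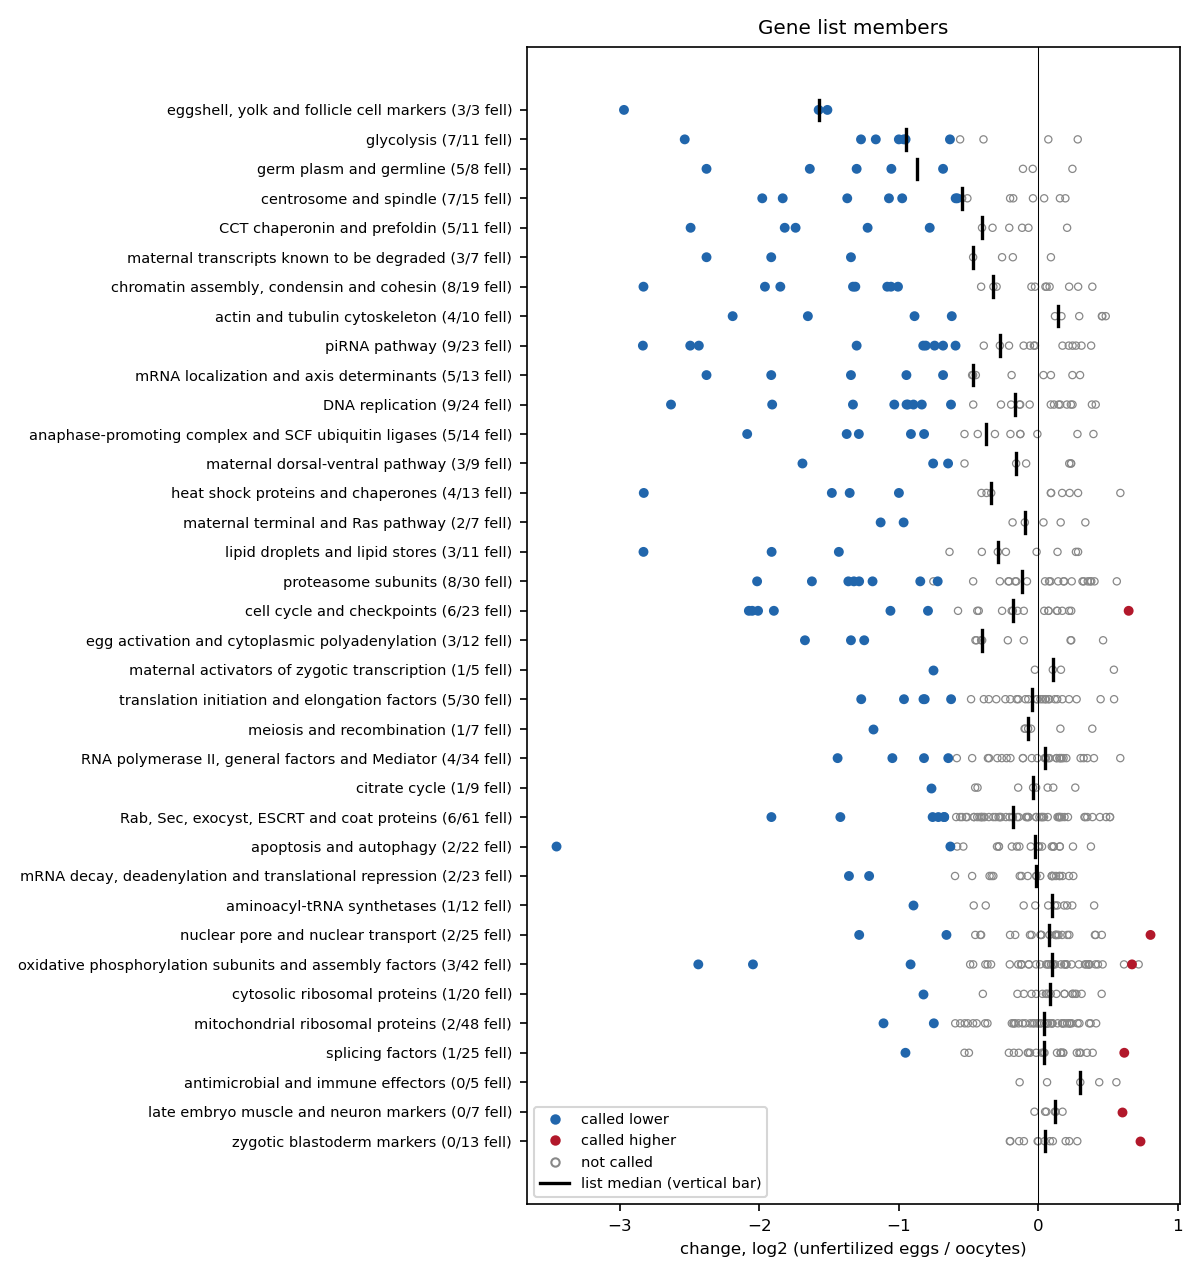
Mean log2 ratio of unfertilized eggs to oocytes (x axis) of each measured member of the gene lists (rows, ordered by the share of members that fell), filled where the adjusted p was under 0.05, with the list median as a bar. Glycolysis (7 of 11) and the germ plasm list (5 of 8) stand near the top, and ribosomal, splicing and oxidative phosphorylation genes near the bottom with shares under 10%.

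The genes that rose changed by less than those that fell, and fewer of them passed under other settings. Lectin-galC1, a galactose-binding lectin, was at 0.71, 0.70 and 1.09 (mean 0.83, SE 0.18, 1.78-fold higher, adjusted p = 0.00541). Bap60, a subunit of the SWI/SNF chromatin remodelling complex, was at 0.40, 0.94 and 1.14, and BomT3, of the Bomanin immune peptide family, at 0.62, 0.66 and 1.197. Rcc1, the exchange factor of Ran, gave 0.69, 0.73 and 1.001. Eh, the eclosion hormone gene, gave 0.44, 0.73 and 1.16. betaTub85D, a tubulin of the male germline whose spots can bind other tubulin transcripts, gave 0.69, 0.94 and 0.64. dj, a sperm tail gene, was at 0.44, 0.41 and 1.36, with replicate 3 apart from the others, and topi, a transcription factor of spermatocytes, was at 0.54, 0.59 and 1.003. The other 7 of the 15 were wam, Pax, dila, ZC3H3, Cyp6t1, Eig71Ed and ND-B8, with means between 0.67 and 0.73. All 15 lay above 0 on each array, as the rule for naming required. Of them, 4 passed on the values as deposited, 7 without replicate 1, 12 without replicate 2, 8 without replicate 3 and 0 in the fit of all 11 arrays.

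The comparison with fertilized embryos asks which transcripts depend on fertilization or age. Unfertilized eggs differed from wild-type embryos at 2 to 3 h in 19 of 6322 genes (0.301%), in all of which the unfertilized eggs were lower. The count was 0 on the values as deposited, 9 on genes measured on all arrays of both groups, 54 on arrays scaled to a common spread, 32 without smg replicate 3 (4 of them higher in unfertilized eggs) and 68 in a fit of the 7 arrays of both groups (10 higher). Fertilization, age, dye orientation and labelling all differ between these groups and cannot be told apart. The largest difference was that of link, at -0.05, 0.05 and -0.11 in unfertilized eggs and at 5.06, 5.27 and 6.09 on the 3 embryo arrays that measured it (difference -5.51, SE 0.71, adjusted p = 0.00241). Inx3, a gap junction protein, was at -0.08, -0.57 and -0.18 against 4.37, 3.89, 3.81 and 4.09 (difference -4.32, SE 0.35, adjusted p = 2.43e-05). Kr (Krüppel), a gap gene of segmentation, was at 0.58, -0.04 and 0.30 against 4.82, 3.16 and 3.85 on 3 embryo arrays (difference -3.66, SE 0.45, adjusted p = 0.00222). In none of these 3 genes did the groups overlap, which the rule for naming required.

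The same rule required groups without overlap in the other 5 of the 8 largest differences. Sry-alpha, which organises actin during cellularization, differed by -3.72, Tom, of the Bearded family of Notch regulators, by -3.99, Traf4, a signalling adaptor, by -3.86, bnb by -3.71, and the adhesion gene Nrt by -3.49, with adjusted p between 9.54e-04 and 0.00865. In unfertilized eggs the means of these 5 genes lay between -0.20 and 0.20, near the median gene. The remaining 11, named after their values were seen, were Elba3, Dtg, Itgbn, Ppa, CG12581, dan, atilla, CG43394, BNIP3, CNT1 and CG10479, with differences between -3.45 and -2.28. atilla was at -0.53, -0.98 and -1.01 in unfertilized eggs and at 2.56, 2.20 and 1.08 on 3 embryo arrays. It was the 1 gene of this set that also fell against oocytes.

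The listed zygotic blastoderm markers were near the median gene in unfertilized eggs. Of 13 measured, 0 fell and 1 rose, against 10% and 0.988% of all genes. The 1 was tll (0.71 and 0.75 on replicates 2 and 3, with no value on replicate 1, adjusted p = 0.0478). When any 1 array was left out, and on the values as deposited, 0 of these markers were called higher. Their median was 0.15, -0.11 and 0.11 on the 3 arrays, and 1.38 over the means of the embryo arrays. Of 12 tested against embryos, 4 were lower in unfertilized eggs, against 0.301% of all genes tested. These were Kr, Tom, Sry-alpha and Elba3, each with a value on 3 embryo arrays. High zygotic genes in embryos were part of the basis for reading ratios as sample over oocyte, so this direction is no separate evidence for it. Of 5 maternal activators of zygotic transcription 1 fell, dl, and 0 were called without replicate 1 or 3. Clamp, a chromatin factor that opens promoters, was at 0.50, 0.36 and 0.77 (adjusted p = 0.0661). Of 5 antimicrobial and immune effector genes 0 were called, and the peptide genes Drsl5 and Drs had means of 0.56 and 0.44 (adjusted p = 0.068 and 0.170). Late muscle and neuron markers gave 0 of 7 that fell and 1 that rose, Act87E, on spots that can bind other actin transcripts (0.51, 0.47 and 0.84), and that call was lost when any 1 array was left out.

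**Figure D5:**
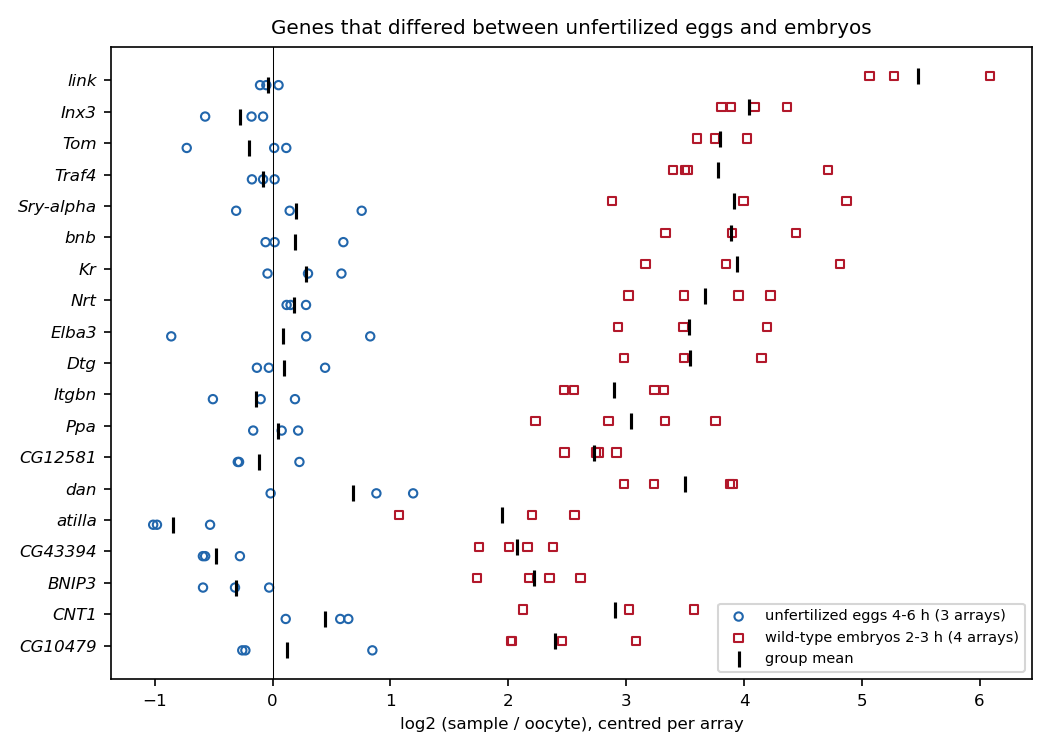
Log2 ratio to oocytes, centred per array, of the 19 genes that differed between unfertilized eggs (circles, 3 arrays) and wild-type embryos (squares, up to 4 arrays), with group means as bars. The unfertilized eggs lie between -1.01 and 1.19 and the embryos between 1.08 and 6.09.

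Of the 680 genes that fell in unfertilized eggs, 677 could be tested against embryos, and 1, atilla, differed. A p that misses the threshold does not show that the other genes were alike in both, and both groups were measured against oocyte RNA. Side by side, drpr stood at a mean of -3.45 in unfertilized eggs and -4.10 in embryos, del at -2.83 and -3.36, Pxt at -2.88 and -2.82, osk at -2.38 and -2.71, and CCT7 at -2.49 and -2.65. Other means lay farther apart without passing. exu was at -1.91 in unfertilized eggs and at -3.75 in embryos (difference 1.84, SE 0.52, adjusted p = 0.398), swa at -0.47 and -2.43 (1.96, SE 0.56, adjusted p = 0.406), and smg at -0.13 and -1.48 (1.35, adjusted p = 0.999). In the opposite direction SAK was at -1.07 in unfertilized eggs and 0.78 in embryos (-1.85, SE 0.42, adjusted p = 0.123), Atg17 at -0.63 and 1.02 (-1.65, adjusted p = 0.514) and CBP at -2.71 and -0.72 (-1.99, adjusted p = 0.999). The arrays of the groups did not overlap in these 6 genes, but the 6 were picked for means that lay apart. Their lack of overlap is thus no evidence of a difference. The groups also did not overlap in other genes that did not pass, such as piwi and pll. The share of such genes among all genes is not given here. Of the 68 genes in the fit of 7 arrays, 58 were lower in unfertilized eggs. Of the 6 genes, exu, swa, SAK, Atg17 and CBP were among the 68, with adjusted p between 8.83e-04 and 0.0494, and smg was not. The 6 were picked from these same values, so this is no separate evidence.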

How the data were processed

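The authors deposited 1 normalized log2 ratio per spot and array. Per the series' design text, total RNA was reverse-transcribed with random primers, images were quantified with QuantArray 3, and GeneTraffic Duo 3.2 made the ratios, normalized by rank-invariant LOWESS. How background and poor spots were treated is not given in the sources. Base 2 was inferred from the range of the values.

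Of 27648 spots, 15116 named a single gene in the platform's table and were averaged to 6793 genes (6702 matched the reference by gene number). 102 spots named several genes and 12430 were not listed, and these were not used. Each array was centred on its gene median. Genes with 2 or more unfertilized arrays were tested with limma 3.58.1 (lmFit, then eBayes; R 4.3.3) as a mean against 0, two-sided, with Benjamini-Hochberg adjustment and a threshold of 0.05. The difference from embryos used all 11 arrays in 3 groups, for genes on at least 2 unfertilized and 3 embryo arrays. Each SE given is limma's, with the spread of a gene drawn toward that of all genes, and does not follow from the printed values alone. For a difference from embryos, that spread includes the smg arrays. The fits were run on simulated data to check the code. For the embryo comparison these data gave all genes and arrays the same spread, unlike the arrays here. Their outcome is no measure of false calls in the real data. Alternatives were another centring, scaling, the median of spots, filters, a robust fit, other sets of arrays and each array left out.

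Named genes were the 15 largest falls and 15 largest rises among called genes (symbols beyond a CG or CR number, all arrays on 1 side). To these were added the 8 largest differences from embryos, among called genes whose groups did not overlap. Each list gave up to 5 called members or, with fewer than 2 called, the 2 of smallest p. smg and the yolk genes were always named. Hsp83 and RpLP2, also in the rule, were on no spot with a single gene name in the platform's table and were not analysed here. The arrays, gene lists and tests were chosen with earlier results of these data known. From the nuclear transport list 1 gene, caught by a name pattern, was removed after values were seen. Arrays of a group carry replicate numbers by accession order.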

Additional observations from a re-analysis of the deposited data

Results flagged for a closer look

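Among 126 named genes with values on all 4 embryo arrays, 6 had 1 array far from the other 3, and chance alone would set apart about 1 in 20 groups. These were embryo replicate 1 for Clamp (-1.19), mtrm (0.46) and Traf4 (4.71), replicate 2 for betaCOP (-1.18) and Pgi (-2.42), and replicate 4 for Lsd-2 (0.021). Groups of 3, such as the unfertilized arrays, were not examined in this way.

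The effect against oocytes differed between unfertilized eggs and embryos in 19 genes by limma's test of the difference, all lower in unfertilized eggs. The differences on the log2 scale were -5.51 for link, -4.32 for Inx3, -3.99 for Tom, -3.86 for Traf4, -3.72 for Sry-alpha, -3.71 for bnb, -3.66 for Kr, -3.49 for Nrt, -3.45 for Elba3, -3.45 for Dtg and -3.04 for Itgbn. They were -2.999 for Ppa, -2.84 for CG12581, -2.82 for dan, -2.79 for atilla, -2.55 for CG43394, -2.53 for BNIP3, -2.47 for CNT1 and -2.28 for CG10479.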

How the results depend on the processing

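The count of 747 genes changed against oocytes stayed between 503 and 854 under the alternatives, with 87.6% to 97.3% of calls lower, except in the fit of all 11 arrays, which called 60, all lower. Leaving out 1 unfertilized array gave 503 to 685 genes, and 98 to 114 of the 127 named genes called in full. The fit of all 11 arrays called 28 of these 127, and 92 were called in every other alternative. For 4 named genes not called against oocytes the sign turned without unfertilized replicate 3, with a range over the arrays left out of -0.0215 to 0.309 for bnb, -0.250 to 0.388 for Mlc2, -0.0824 to 0.450 for Sry-alpha and -0.358 to 0.0646 for Tom. The count of 19 genes that differed from embryos was 14 to 22 when 1 unfertilized or embryo array was left out, and 18 to 32 when 1 smg array was. On the values as deposited the count was 0 (24 at an unadjusted p under 0.05 by limma), where embryo replicate 1 and smg replicate 1 had medians of -4.01 and -4.43. Arrays scaled to a common spread gave 54 genes, genes on all arrays of both groups 9, the 7 arrays alone 68 (10 higher), and the arrays without smg replicate 3 gave 32 (4 higher). Of the 8 named differences, 0 passed as deposited, 3 among genes on all arrays, and 7 or 8 with 1 array left out. For these changes the cause was not tested, except that fewer genes were tested on all arrays. The restriction to genes whose spots lay close together and the settings without 1 smg array or without the pair of arrays of low median were chosen after seeing the data. No paired analysis was possible because the number in each title is its own and names no pairs. Without intensities, a low ratio of a weak spot cannot be told from one of a strong spot.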

Other observations

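Several genes outside the rule for naming lay at the ends of the distribution and are given as values, chosen after they were seen. dhd, a germline thioredoxin gene, had a mean of -3.12 on the 2 arrays that measured it, the second lowest of the genes called. CG8778 had a mean of -2.97, Gcna of -2.52, oys of -2.50, CG15014 of -2.49 and Fkbp59 of -2.47. Of the called genes known by a CG or CR number alone, 188 fell and 33 rose, out of 680 and 67. The 6 highest means among the genes that rose all belonged to such genes, from 0.99 for CG10195 and CG45067 and 0.97 for CG17570 to 0.85 for CG14570.

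In the fit of the 7 arrays of unfertilized eggs and embryos alone, 10 genes were higher in unfertilized eggs. Beside exu and swa these were Ggt-1 (-0.66 in unfertilized eggs, -2.44 in embryos), CG7386 (-0.15 and -1.86), Tsp66E (-0.95 and -2.34), CG11674 (-0.35 and -1.74), the sodium pump subunit gene nrv1 (-1.45 and -2.83), CG9641 (-1.59 and -2.93), Vps50 (-0.18 and -1.42) and the mitochondrial calcium uniporter gene MCU (0.13 and -1.05). Their adjusted p in that fit lay between 8.83e-04 and 0.0483, and none of the 10 passed in the fit of all 11 arrays.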
